A study of Macaca fascicularis with 10 samples.

Results

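DDIT3, DDIT4, CHAC1, HERPUD1 and ALDH1L2 are 5 genes of the response to endoplasmic reticulum (ER) stress and to the transcription factor ATF4, out of 14132 genes that a probe set of the array named alone. All 7 probe sets annotated with these symbols were taken, 1 each for DDIT3, DDIT4, CHAC1 and HERPUD1 and 3 for ALDH1L2. The genes had been chosen by their measured signal, as lower in parthenogenetic haploid than in ICSI-derived embryonic stem cells (ESCs) on these same arrays, and their difference between those groups is therefore given as a description without a test. RNA of cultured cynomolgus monkey (Macaca fascicularis) cells was measured on 10 Affymetrix arrays designed for the rhesus macaque, 1 per sample. Values are signal intensity on a linear scale, which the arrays' common scaling sets relative to the RNA of each sample and not per cell.

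Parthenogenetic haploid ESCs (PG-haESCs), which descend from an egg activated without sperm and are labelled haploid, gave 5 arrays. Of these, 4 carry the line name MPH1, under the codes M1 (passages 8 and 11) and M2 (passages 7 and 9), and 1 carries the name MPH2 (passage 4). Diploid ESCs from embryos fertilised by ICSI, the injection of a sperm into the egg, gave 3 arrays of the lines MES1 (passage 12), MES2 and MES3 (passage 4 each). Somatic fibroblasts of female animals, also diploid, gave 2 arrays of 1 line name at passages 14 and 15. The labels name culture on feeder cells with Y27635 and Thiazovivin for the PG-haESCs, and no other treatment of any group. The ESC lines are few and the fibroblast arrays are 2 passages of 1 line name. P-values therefore measure the spread between these samples, which for MPH1 and the fibroblasts may be that of 1 culture. Tests within MPH1 also draw on the spread of the ICSI ESC and fibroblast arrays.

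Cells under ER stress, amino acid shortage or other insults phosphorylate the initiation factor eIF2alpha, which slows protein synthesis in general while favouring translation of ATF4. ATF4 then switches on genes of amino acid supply, of redox balance and, under prolonged stress, of cell death. Parallel branches of the unfolded protein response act through IRE1 and XBP1 and through ATF6, and raise chaperones and the machinery that sends misfolded ER proteins to the proteasome. Most of these roles are known from human and mouse cells.

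The arrays' identity was checked first. Summed signal of 7 pluripotency genes was 61910 to 86124 on PG-haESC arrays and 54133 to 70555 on ICSI ESC arrays, against 2075 to 2466 on fibroblast arrays. The fibroblast arrays had the highest summed signal of 8 fibroblast genes, 168459 to 169381. Taken singly, only 5 of these 8 genes were lower in ESCs than in fibroblasts, and 2 were so at a limma adjusted p under 0.05. They also carried 8 of 8 epidermal genes above the array median, with sums of 310169 to 312948 against 3111 to 3745 on PG-haESC arrays and 3855 to 4897 on ICSI ESC arrays, which the label fibroblast does not name. Fibroblast or feeder genes summed to 21705 to 62301 on PG-haESC arrays and 33439 to 135968 on ICSI ESC arrays, with the highest ESC sum on the MES1 array. The mean log2 signal of these genes was 12.8 on the MES1 array, near the 13.2 of both fibroblast arrays. Endoderm genes summed to 1425 to 14542 on PG-haESC arrays and 6548 to 19917 on ICSI ESC arrays. Leukocyte genes summed to 344 to 594 on PG-haESC arrays and 260 to 463 on ICSI ESC arrays, against 2212 to 2316 on fibroblast arrays. On both fibroblast arrays 3 of 3 leukocyte genes lay above the array median, which the label does not name either. The MPH1 M1 array of passage 11 and the MES1 array stood apart by the highest spike-in control signal, so differences are also given without them.

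Across the array, few probe sets were called between PG-haESCs and ICSI ESCs, in a comparison of few lines. Of 34140 probe sets tested with limma, 154 (0.451%) had an adjusted p under 0.05, of which 29 (0.0849%) were lower and 125 (0.366%) higher in PG-haESCs. The number of probe sets called ran from 8 to 475 under other settings. Counted by gene, 8 genes (0.0685%) were called lower and 59 (0.505%) higher, and 8.76% had an unadjusted p under 0.05. In 376 genes (3.22%) every PG-haESC array lay below every ICSI ESC array, and in 590 (5.05%) every one lay above. The median difference over the 11676 genes tested was -0.02 on the log2 scale. Nothing is read from these shares about the 5 genes, since the same contrast chose them.

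DDIT3 encodes CHOP, a transcription factor that ATF4 induces and that promotes cell death when stress persists. On the 4 MPH1 arrays its signal was 1132 (M1, passage 8), 1168 (M1, passage 11), 1018 (M2, passage 7) and 956 (M2, passage 9), and on the MPH2 array it was 1017. The ICSI ESC arrays of MES1, MES2 and MES3 read 2363, 2993 and 3023, and the fibroblast arrays 749 and 859. The 5 PG-haESC arrays formed a narrow band well below every ICSI ESC array and above both fibroblast arrays. The geometric means were 1055 in PG-haESCs, 2775 in ICSI ESCs and 802 in fibroblasts, with SDs of 0.12, 0.20 and 0.14 on the log2 scale (n = 5, 3 and 2). The fitted log2 difference between PG-haESCs and ICSI ESCs was -1.40 ± 0.17 (SE), which is 2.64-fold lower. It was -1.55 without the 2 arrays of highest spike-in signal.

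CHAC1 encodes an enzyme that breaks down glutathione and is induced in human and mouse cells through ATF4, ATF3 and CHOP. Its signal was 962, 733, 730 and 615 on the MPH1 arrays in the same order and 601 on the MPH2 array. The ICSI ESC arrays read 1594, 2085 and 1340, and the fibroblast arrays 787 and 654. All PG-haESC arrays were below all ICSI ESC arrays, and they overlapped the fibroblast arrays. The geometric mean was 718 in PG-haESCs, 1645 in ICSI ESCs and 717 in fibroblasts, with SDs of 0.27, 0.32 and 0.19 on the log2 scale. PG-haESCs were 2.35-fold lower than ICSI ESCs, a log2 difference of -1.23 ± 0.24, or -1.26 without the 2 arrays of highest spike-in signal.

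DDIT4, also called REDD1, encodes an inhibitor of the growth kinase complex mTORC1 and responds to ATF4, hypoxia and glucocorticoids. It read 3187, 2354, 1941 and 3461 on the MPH1 arrays and 4209 on the MPH2 array. The ICSI ESC arrays read 9243, 9009 and 8977, and the fibroblast arrays 2041 and 2109. The 3 ICSI ESC lines were almost equal, while the PG-haESC arrays were the most variable of the groups and the lowest of them lay under both fibroblast arrays. The geometric mean was 2920 in PG-haESCs (SD 0.45 on the log2 scale), 9076 in ICSI ESCs (SD 0.023) and 2075 in fibroblasts (SD 0.033). The log2 difference of PG-haESCs from ICSI ESCs was -1.56 ± 0.25, which is 2.95-fold lower, and -1.49 without the 2 arrays of highest spike-in signal.

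HERPUD1 encodes a membrane protein of the ER that takes part in the degradation of misfolded ER proteins and is induced by ER stress. Its signal was 1416, 1763, 1598 and 1764 on the MPH1 arrays and 2217 on the MPH2 array. The ICSI ESC arrays read 4046, 3555 and 2853, and the fibroblast arrays 5146 and 5130. The 3 groups did not overlap, and HERPUD1 was the only one of the 5 genes to follow the order PG-haESC, ICSI ESC, fibroblast with no overlap. The geometric mean was 1732 in PG-haESCs, 3449 in ICSI ESCs and 5138 in fibroblasts, with SDs of 0.24, 0.25 and 0.003 on the log2 scale. The log2 difference of PG-haESCs from ICSI ESCs was -0.94 ± 0.19, which is 1.92-fold lower, the smallest of these 4 genes, and -0.84 without the 2 arrays of highest spike-in signal.

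**Figure D1:**
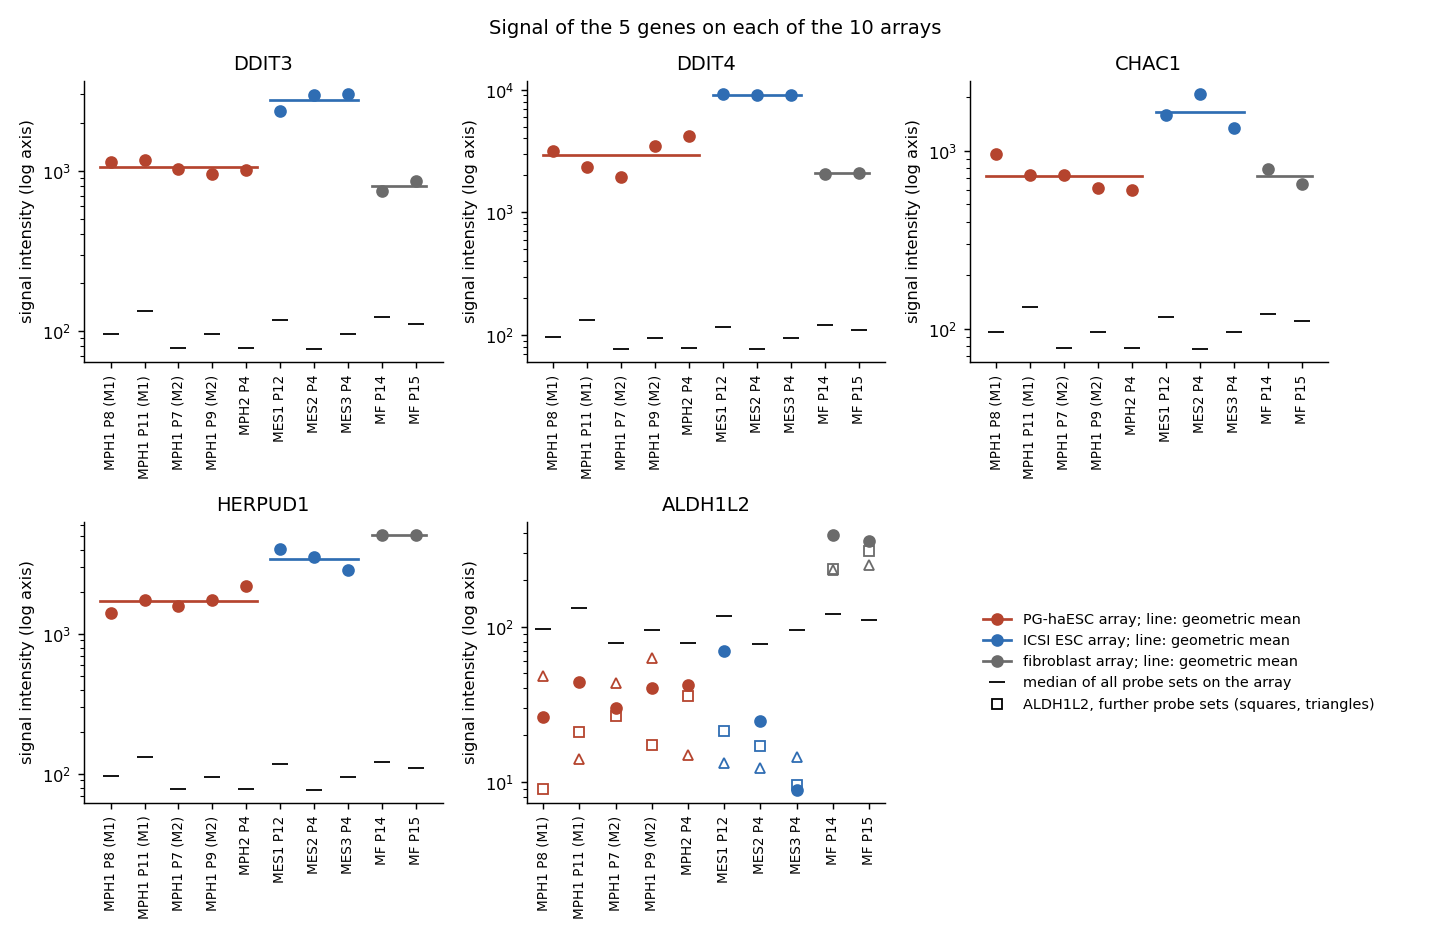
Signal of each probe set of the 5 genes on each of the 10 arrays (vertical axis, linear signal on a log scale), with PG-haESC arrays left of ICSI ESC and fibroblast arrays. For DDIT3, DDIT4, CHAC1 and HERPUD1 every PG-haESC array lies below every ICSI ESC array, and for the 3 ALDH1L2 probe sets all 8 ESC arrays lie far below both fibroblast arrays.

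ALDH1L2, a mitochondrial enzyme of folate metabolism reported as an ATF4 target in human cells, did not follow the other 4 genes. Each of its 3 probe sets lay below the array's median signal on all 8 ESC arrays, so its ESC values are those of a dim probe set. The first probe set (MmugDNA.17967.1.S1_at) read 26.1, 43.9, 29.8, 39.9 and 41.9 on the PG-haESC arrays, 70.0, 24.5 and 8.82 on the ICSI ESC arrays, and 393 and 357 on the fibroblast arrays. PG-haESC and ICSI ESC arrays overlapped, with the highest and the lowest ESC value both among the ICSI ESC arrays. The second probe set (MmugDNA.28032.1.S1_at) ran from 8.95 to 35.8 in PG-haESCs and from 9.51 to 21.2 in ICSI ESCs, against 234 and 308 in fibroblasts. The third (MmugDNA.36088.1.S1_at) ran from 14.1 to 62.9 in PG-haESCs and from 12.2 to 14.4 in ICSI ESCs, against 231 and 251 in fibroblasts. Their log2 differences of PG-haESCs from ICSI ESCs were 0.56 ± 0.78, 0.51 ± 0.91 and 1.06 ± 0.89, all positive and none much beyond its standard error. The data thus go against the stated choice for ALDH1L2, which was not lower in PG-haESCs on any of its probe sets.

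ESCs as a whole were then compared with fibroblasts, a measure that the choice of the genes did not use. The ESC mean gave weights of 0.512 to PG-haESCs and 0.488 to ICSI ESCs, which makes the estimate uncorrelated with the difference between them. In this comparison 36.4% of all probe sets were called, 18.2% lower and 18.3% higher in ESCs, so a call is common. Of all genes, 26.8% had every ESC array below and 29.9% every ESC array above both fibroblast arrays. DDIT3 rose in ESCs by 1.07 ± 0.19 on the log2 scale (limma adjusted p = 0.00085), and all 8 ESC arrays lay above both fibroblast arrays. DDIT4 rose by 1.33 ± 0.28 (adjusted p = 0.0026), although 1 PG-haESC array read below both fibroblast arrays. CHAC1 did not pass, at 0.57 ± 0.26 (adjusted p = 0.12). It passed with quantile normalization, at 0.79 (adjusted p = 0.031), and without the MPH2 array, at 0.70 (adjusted p = 0.049).

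HERPUD1 fell in ESCs, with a log2 difference of -1.06 ± 0.21 (limma adjusted p = 0.0016) and all 8 ESC arrays below both fibroblast arrays. The call was lost when arrays were averaged per line (adjusted p = 0.053) and when they were centred on their medians (adjusted p = 0.099). The ALDH1L2 probe sets were at least 3.96-fold, 2.84-fold and 2.55-fold lower in ESCs, bounds taken with each ESC signal raised to its array's median. They passed the filter on dim probe sets only through the fibroblast arrays, so a difference of this direction was built into their being kept. It is therefore given as a description without a test. The fibroblast arrays' epidermal and leukocyte signals move with each of these differences, and the part of these signals was not tested.

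The ESC mean joins groups that stood at different distances from the fibroblasts. DDIT3 differed from fibroblasts by 0.39 on the log2 scale in PG-haESCs and by 1.79 in ICSI ESCs. DDIT4 differed by 0.57 in PG-haESCs and by 2.13 in ICSI ESCs. CHAC1 differed by -0.04 in PG-haESCs and by 1.20 in ICSI ESCs. For these 3 genes the PG-haESC level lay near that of the fibroblasts and the ICSI ESC level well above it. HERPUD1 differed by -1.52 in PG-haESCs and by -0.57 in ICSI ESCs, so here the ICSI ESCs were nearer to the fibroblasts. These pairwise differences share the groups used to pick the genes and are given without a test.

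Within PG-haESCs, the line MPH1 allowed the codes M1 and M2 and the passages to be compared, which the choice of the genes did not use. No probe set of the array was called between M1 and M2 or between later and earlier passage (0% called by limma in each, with 7.62% and 5.74% at an unadjusted p under 0.05). DDIT3 differed between M1 and M2 by 0.22 ± 0.20 on the log2 scale (adjusted p = 0.83), and CHAC1 by 0.33 ± 0.25 (adjusted p = 0.79). DDIT4 differed by 0.08 ± 0.26 (adjusted p = 0.96) and HERPUD1 by -0.09 ± 0.19 (adjusted p = 0.95). None passed, and with 4 residual degrees of freedom this design resolves only large differences. Most of these came from the ICSI ESC lines and the fibroblast arrays, so the p-values say little of the spread within MPH1.

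Later against earlier passage of MPH1 gave log2 differences of -0.02 for DDIT3, 0.20 for DDIT4, -0.32 for CHAC1 and 0.23 for HERPUD1, none of which passed (limma adjusted p = 0.99, 0.90, 0.84 and 0.85). CHAC1 was lower at the later passage under both codes, by -0.39 under M1 and -0.25 under M2, and HERPUD1 was higher under both, by 0.32 and 0.14. DDIT4 moved in opposite directions, -0.44 under M1 and 0.83 under M2.

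The line MPH2 stood on different sides of MPH1 for different genes. DDIT4 read 4209 on the MPH2 array against a geometric mean of 2664 on the MPH1 arrays, and HERPUD1 2217 on the MPH2 array against 1629 on the MPH1 arrays, the highest PG-haESC value for each gene. CHAC1 read 601 on the MPH2 array against 750 on the MPH1 arrays, the lowest PG-haESC value. DDIT3 was about equal, at 1017 on the MPH2 array against 1065 on the MPH1 arrays. MPH2 had 1 array, so its difference from MPH1 has no replicate check.

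Passage differed between the ESC groups, and 1 PG-haESC array and 2 ICSI ESC arrays were of passage 4. Among these, DDIT3 was 2.94-fold and 2.97-fold lower in MPH2 than in MES2 and MES3, and DDIT4 2.14-fold and 2.13-fold lower. CHAC1 was 3.47-fold and 2.23-fold lower, and HERPUD1 1.60-fold and 1.29-fold lower. Every PG-haESC array lay below every ICSI ESC array for these 4 genes, which were chosen on that difference, so any such pair of arrays gives this direction and only the sizes describe the match of passage.

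The difference between PG-haESCs and ICSI ESCs was described under 22 other settings of processing and sample choice, of which 18 kept the ALDH1L2 probe sets in the test. It ran from -1.55 to -1.34 for DDIT3, -1.77 to -1.44 for DDIT4, -1.38 to -1.06 for CHAC1 and -1.08 to -0.84 for HERPUD1 on the log2 scale. For the 3 ALDH1L2 probe sets the ranges were -0.18 to 1.29, -0.06 to 0.75 and -0.06 to 1.47. The first 4 genes kept their sign throughout, which the choice of genes whose groups do not overlap favours, and each ALDH1L2 range included 0. The first ALDH1L2 probe set was at -0.18 without the MES3 array.

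**Figure D2:**
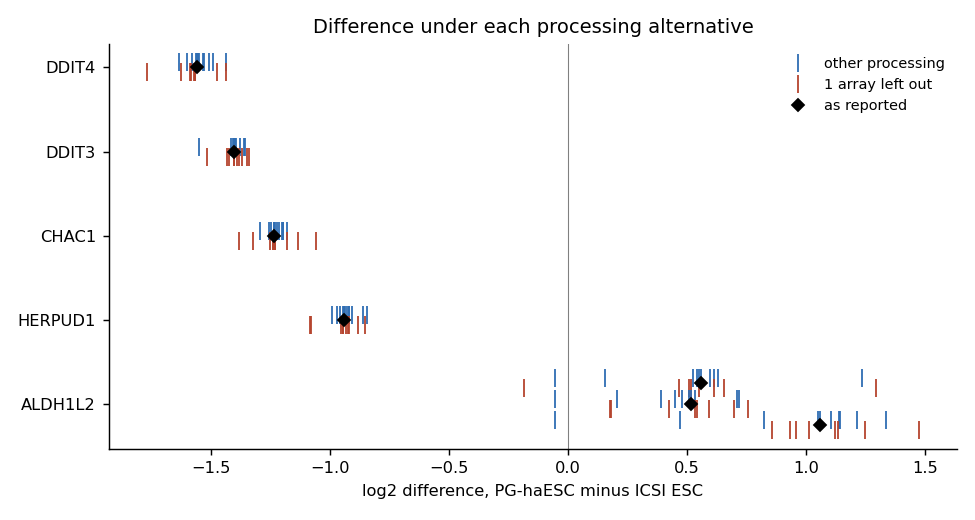
Log2 difference of PG-haESCs from ICSI ESCs for each probe set of the 5 genes. Diamonds are the values as reported, blue ticks other processing settings, and red ticks fits with 1 array left out. The ALDH1L2 ticks straddle 0, while the 4 other genes stay between -1.77 and -0.84.

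Over the 8 ESC arrays the 4 genes that were lower in PG-haESCs had similar profiles. Pearson's r between their log2 signals was 0.93 for DDIT3 with CHAC1, 0.91 for DDIT4 with HERPUD1, 0.90 for DDIT3 with DDIT4, 0.86 for DDIT3 with HERPUD1, 0.82 for DDIT4 with CHAC1 and 0.79 for CHAC1 with HERPUD1. ALDH1L2 had r from -0.43 to 0.01 with them. These values describe 8 arrays that fall into 2 groups, and the group difference on which the genes were picked raises them. How much of each r it makes up was not computed. Within the 5 PG-haESC arrays the order differed by gene, since the MPH2 array was the highest for DDIT4 and HERPUD1 and the lowest for CHAC1.

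The genes most like the mean profile of the 5 over the 8 ESC arrays, of 11676 compared, were TMEM179B (r = 0.963), NDFIP2 (0.955), TMED10 (0.954), QSOX1 (0.953), C1H1orf115 (0.940), AGPAT4 (0.936), NR3C1 (0.933), CCDC50 (0.933), STAMBPL1 (0.924) and TLN2 (0.923). TMED10 encodes a cargo receptor of traffic between ER and Golgi, QSOX1 an enzyme that forms disulfide bonds in secreted proteins, and NR3C1 the glucocorticoid receptor. In all 10, every PG-haESC array lay below every ICSI ESC array, which follows from ranking genes by likeness to a profile chosen for that group difference. With ALDH1L2 left out of the mean, a setting chosen after seeing the data, SNRPN and TMED10 came first (0.971 each), and 4 genes, AGPAT4, C1H1orf115, NR3C1 and TMED10, were among the 10 of both means. SNRPN is an imprinted gene expressed from the paternal copy in human and mouse.

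Single members had their own nearest genes. TLR7 (0.973), SNRPN (0.963) and SDE2 (0.959) were most like DDIT3. PDLIM1 (0.986), NR3C1 (0.983) and RER1 (0.979) were most like DDIT4. CATSPERZ (0.968), ANKS6 (0.952) and CHCHD10 (0.947) were most like CHAC1, and MRPL58 (0.983), C1H1orf115 (0.977) and SERPINA1 (0.959) most like HERPUD1. Those for ALDH1L2 were MUCL3 (0.982), MRGBP (0.959) and APOBEC3H (0.957). No gene was among the 3 nearest of more than 1 member.

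The wider pathway was read through 12 lists of genes around the 5, which leave out the 5 themselves. The lists were chosen with earlier results of these data known, so their shares beside those of all genes are a description. Of the 109 list genes tested, limma called 0 between PG-haESCs and ICSI ESCs, where 0.574% of all genes were called. At an unadjusted p under 0.05, 10 (9.17%) were lower in PG-haESCs and 0 higher, beside 8.76% of all genes in either direction, 3.3% lower and 5.46% higher. Among the stress sensors and transcription factors, every PG-haESC array lay below every ICSI ESC array for 3 of 11 genes, ATF4, XBP1 and ATF3. Among the signalling and cell death targets of ATF4 and CHOP this held for 3 of 13, TRIB3, JDP2 and FGF21. It held for 1 of 7 tRNA synthetase genes (YARS1), for 1 of 8 hypoxia targets (ADM) and for none in the other 8 lists, against 3.22% of all genes. No list gene had every PG-haESC array above every ICSI ESC array, which 5.05% of all genes had.

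ATF4, the central factor of the response, read 13258 to 17145 on PG-haESC arrays and 17769 to 20126 on ICSI ESC arrays, against 7891 and 7794 on fibroblast arrays. Its log2 difference between the ESC groups was -0.37 ± 0.14 (limma adjusted p = 0.54). That is smaller than for DDIT3, DDIT4, CHAC1 or HERPUD1, which were picked on this difference, so the sizes are not comparable. In ESCs ATF4 rose by 1.10 ± 0.16 over fibroblasts (adjusted p = 0.00018). ATF4 activity is controlled largely at translation, which an RNA array does not measure. XBP1, whose RNA is spliced by IRE1 under stress, read 1940 to 2440 on PG-haESC arrays and 2696 to 2857 on ICSI ESC arrays, a difference of -0.38 ± 0.15 (adjusted p = 0.53). ATF3, a stress factor downstream of ATF4, read 986 to 2020 on PG-haESC arrays and 2203 to 3698 on ICSI ESC arrays, a difference of -0.98 ± 0.31 (adjusted p = 0.31).

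TRIB3, a pseudokinase induced by ATF4 and CHOP, had the largest difference of the 109 list genes between PG-haESCs and ICSI ESCs. It read 617 to 1375 on PG-haESC arrays and 1978 to 3663 on ICSI ESC arrays, against 24 and 94.3 on fibroblast arrays. The groups did not overlap, yet the difference of -1.76 ± 0.51 did not pass (limma adjusted p = 0.24). It passed when signals under the array median were raised to it (adjusted p = 0.029), as did ATF3 without the 2 arrays of highest spike-in signal (-1.09, adjusted p = 0.049), both settings chosen after seeing the data. YARS1, which loads tyrosine onto its tRNA, differed by -0.71 ± 0.19 (adjusted p = 0.19), and passed without the MES1 array (-0.85, adjusted p = 0.049) and without the 2 arrays of highest spike-in signal (-0.91, adjusted p = 0.040). JDP2, a transcriptional repressor related to ATF3, differed by -0.81 (adjusted p = 0.38), and FGF21, a secreted hormone, by -1.14 (adjusted p = 0.72) with 4 of 8 ESC arrays below the array median.

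Of the amino acid genes, none had every PG-haESC array below every ICSI ESC array. ASNS, which makes asparagine and is a classic ATF4 target, differed by -0.18 ± 0.24 between PG-haESCs and ICSI ESCs (limma adjusted p = 0.98). SLC7A11, the cystine importer, differed by -0.53 ± 0.21 (adjusted p = 0.53), and PCK2 by -0.56 ± 0.26 (adjusted p = 0.68). SLC7A1, an importer of basic amino acids, differed by -0.88 ± 0.72 (adjusted p = 0.93). Over the 12 amino acid genes the median difference was -0.18, over the 13 signalling and cell death targets -0.39, and over the 7 tRNA synthetase genes -0.21, beside -0.02 over all genes. The ER chaperones (11 genes, median -0.12) and the degradation genes around HERPUD1 (14 genes, median 0.00) were nearer to that value. HSPA5, the main ER chaperone, had no probe set under its symbol in the annotation.

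Genes that work with DDIT4 and CHAC1 were read in lists of their own, in which none was called between the ESC groups. The 12 genes of mTORC1 and its regulators had a median of 0.07, with SESN1 at 0.35 (limma adjusted p = 0.91) and SESN3 at 0.90 (adjusted p = 0.77). The 5 glutathione enzymes had a median of -0.22, with 4 of 5 below 0, and the 7 folate and one-carbon enzymes one of -0.05. GGCT, which like CHAC1 acts on gamma-glutamyl peptides, read 215 to 283 on the MPH1 arrays and 1687 on the MPH2 array, against 843 to 1045 on ICSI ESC arrays. Its difference of -1.0 ± 0.54 did not pass (adjusted p = 0.80), but passed at -1.86 without the MPH2 array (adjusted p = 0.0036). Of 8 hypoxia targets, which share DDIT4's other inducer, the median was 0.05. ADM, a vasodilator peptide, differed by -1.36 ± 0.34 (adjusted p = 0.15), and passed at -1.33 without the line block (adjusted p = 0.037). The 8 p53 targets had a median of -0.04.

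**Figure D3:**
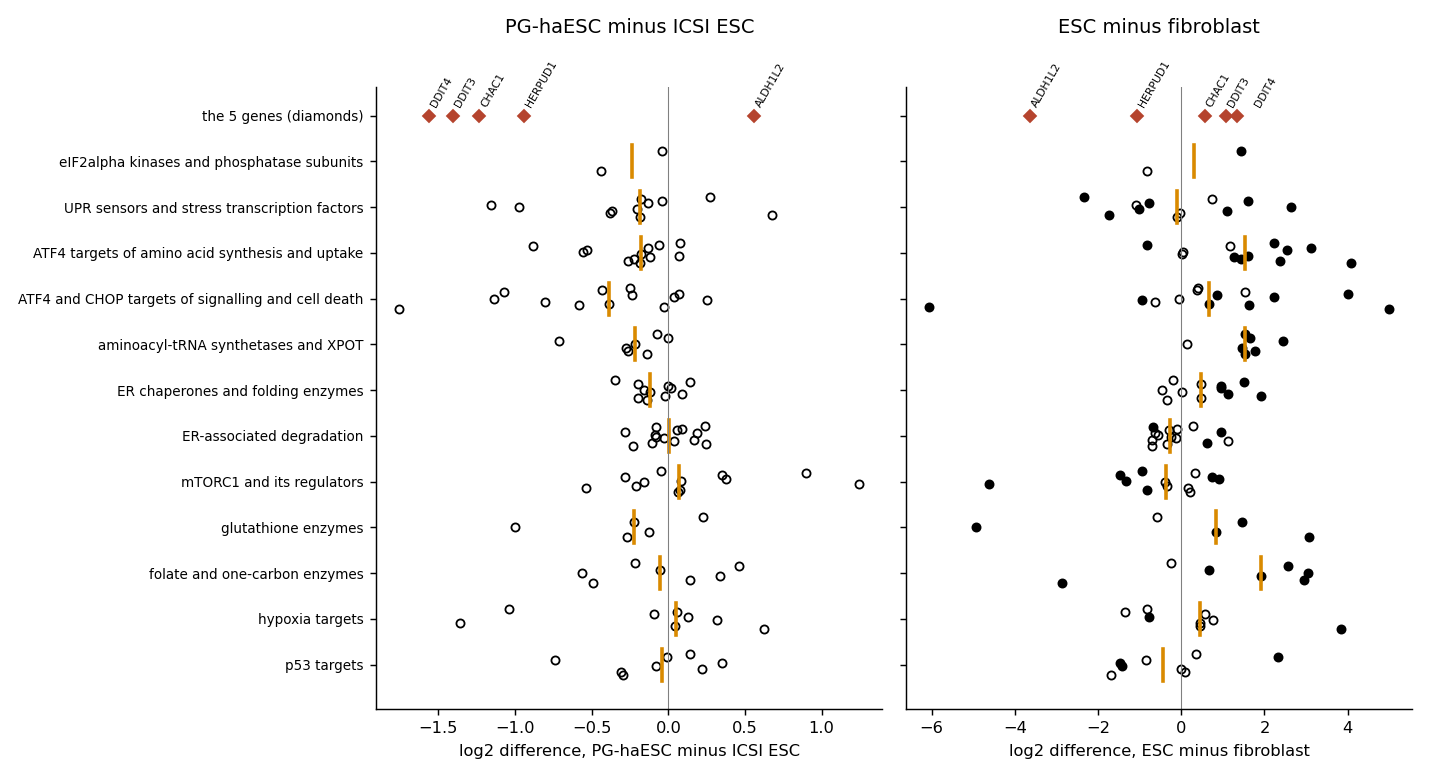
Log2 difference of PG-haESCs from ICSI ESCs (left) and of ESCs from fibroblasts (right) for each tested gene of the 12 lists. Dots are genes, filled where the adjusted p was under 0.05, orange bars are list medians, and diamonds are the 5 picked genes, ALDH1L2 by its first probe set. No dot is filled on the left. DDIT3, DDIT4, CHAC1 and HERPUD1 lie below every list's median there, which their choice on that difference favours.

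Against fibroblasts the lists differed from each other, beside 19.1% of all genes called lower and 24.6% called higher in ESCs. Of 12 amino acid genes 8 were higher in ESCs and 1 lower (median 1.53), with ASNS up by 4.07 and SLC7A11 by 2.55. Of 7 tRNA synthetase genes 6 were higher and none lower (median 1.53). Of 13 signalling and cell death targets 6 were higher, with TRIB3 at 5.0 and PMAIP1 at 4.0. The 2 lower ones were NUPR1 at -6.06, the largest difference of this list, and KLHL24 at -0.95. NUPR1 read below the array median on 3 of 8 ESC arrays, so its size rests partly on a dim signal. TRIB3 read below the array median on both fibroblast arrays, so its size is that against a dim signal. The median of these targets was 0.66, and 0.41 with signals under the array median raised to it. Of 7 folate and one-carbon enzymes 5 were higher, TYMS by 3.05 and MTHFD1 by 2.95, and 1 was lower (median 1.91).

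The list around HERPUD1 was that of ER-associated degradation. Of 14 degradation genes 2 were higher and 1 lower in ESCs (median -0.27), the lower one being SELENOS at -0.68 (limma adjusted p = 0.0053). Of 11 ER chaperones 5 were higher and none lower, with PDIA4 up by 1.91. Of 12 mTORC1 genes 2 were higher and 5 lower, SESN1 at -1.48 and TSC2 at -1.32. Of 5 glutathione enzymes 3 were higher, GCLC by 3.08, and GGCT alone was lower, at -4.94. Of 11 sensors and transcription factors 3 were higher, with ATF3 up by 2.65 and NFE2L2 by 1.61, and 4 were lower. Of 8 hypoxia targets 1 was higher (CA9, by 3.83) and 1 lower, and of 8 p53 targets 1 was higher (CCNG1, by 2.32) and 2 lower. CA9 read 13.9 on the passage 14 fibroblast array, below that array's median of 121, so its size rests partly on a dim signal. Of the 2 tested genes around eIF2alpha, EIF2S1 was higher by 1.44. Several of these counts depended on the setting. For mTORC1 genes they were 1 lower and 1 higher with centring on array medians, 2 lower and 0 higher without the passage 14 fibroblast array, and 3 lower and 0 higher without the passage 15 one. Over all alternatives, the lower count ran from 0 to 4 for degradation genes, 2 to 5 for sensors and transcription factors, 0 to 3 for hypoxia targets, 0 to 3 for p53 targets and 1 to 3 for signalling and cell death targets. The higher count ran from 0 to 2 for degradation genes, 6 to 8 for amino acid genes, 4 to 6 for ER chaperones, 4 to 6 for signalling and cell death targets and 4 to 5 for folate enzymes. The tRNA synthetase and glutathione counts were the same in every alternative run.

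Markers of other cell types and the members were set side by side on the ESC arrays. Endoderm markers shared the direction of DDIT3, DDIT4, CHAC1 and HERPUD1 between the ESC groups, on which these genes were picked. Within PG-haESCs the endoderm sums were 1425 (MPH2), 1559 (M2, passage 9), 2874 (M2, passage 7), 4509 (M1, passage 8) and 14542 (M1, passage 11). In the same sequence, DDIT3 (1017, 956, 1018, 1132 and 1168) and CHAC1 (601, 615, 730, 962 and 733) came close to that order. DDIT4 and HERPUD1 did not, and had their highest PG-haESC signal on the MPH2 array. All 7 endoderm markers were lower in PG-haESCs, with a median log2 difference of -1.67, though none was called and none had every PG-haESC array below every ICSI ESC array. Endoderm sums of 4 PG-haESC arrays, 1425 to 4509, lay below those of all ICSI ESC arrays, 6548 to 19917, and the fifth, the MPH1 M1 array of passage 11, had 14542. On that array DDIT3, DDIT4, CHAC1 and HERPUD1 were below every ICSI ESC array, as on every PG-haESC array, and the genes were chosen on that difference. Fibroblast and leukocyte sums overlapped between PG-haESC and ICSI ESC arrays, and epidermal sums did not, being lower on all 5 PG-haESC arrays with 6 of 8 genes below the median on every ESC array. The part of these cells in the differences was not tested, and in such bulk RNA fewer cells of a type and less RNA per cell cannot be told apart.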

How the data were processed

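The deposited values are linear signal intensity of 52865 probe sets on 10 arrays, made by the authors with MAS5 per the submitters' processing notes, which name no release. Per the labels, RNA was extracted with TRIZOL and biotin-labelled. Arrays had been scaled to a common trimmed mean. The number of arrays limits the precision, and with no detection calls a signal under the array median (76.8 to 133) is treated as dim.

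After 158 control probe sets were left out, 34140 above their array's median on at least 2 arrays were tested as log2 signal with limma 3.58.1 in R 4.3.3. The model held group means of all 10 arrays, line name as a random block (correlation 0.29) and a variance trend, with 7 residual and 5.37 prior degrees of freedom. Tests were two-sided, adjusted by Benjamini-Hochberg over all probe sets, with 0.05 as threshold. For MPH1, M1, M2, MPH2, ICSI ESC and fibroblast means and 1 passage term were fitted without a block.

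Symbols came from the platform annotation: 24956 probe sets had 1, 361 several and 27390 none. A gene is its tested probe set of highest mean log2 signal, and 58 list genes were not tested. The members and lists were chosen with earlier results of these data known. Named were all member probe sets, ATF4, XBP1, HSPA5, ASNS and TRIB3, per list the 4 genes of smallest p between ESC groups and the 2 against fibroblasts, and the genes of highest r; those with values of their own in the text are a subset. JDP2, FGF21, YARS1 and ADM are in that rule. NUPR1 and KLHL24 are not, and are named as the lower genes of their list against fibroblasts. Alternatives are given at the end. The code was tested on simulated data. Figures used matplotlib 3.10.9 in Python 3.11.15.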

Additional observations from a re-analysis of the deposited data

Results flagged for a closer look

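The step between passages of MPH1 had opposite signs under the codes M1 and M2 for 4 probe sets, with 1 array behind each passage and code, and the difference between the codes was not tested. For DDIT3 passage 11 minus passage 8 of M1 was 0.045 on the log2 scale and passage 9 minus passage 7 of M2 was -0.091. For DDIT4 the steps were -0.44 under M1 and 0.83 under M2. For ALDH1L2 they were 1.23 under M1 and -0.62 under M2 with the second probe set (MmugDNA.28032.1.S1_at), and -1.76 and 0.54 with the third (MmugDNA.36088.1.S1_at). The ALDH1L2 steps are between signals below the array median. No array stood out from its group in the 7 member probe sets over the 5 PG-haESC arrays, and groups of 3 or fewer arrays were not tested for this.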

How the results depend on the processing

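With 154 probe sets called between PG-haESCs and ICSI ESCs as reported, the count was 475 with no replicate block, 256 with the description code as block, 9 with arrays averaged per line, 14 with centring on array medians, 102 with the 75th percentile filter, 13 without the variance trend, 84 with only the groups compared and 431 without the 2 arrays of highest spike-in signal. Leaving out 1 array gave 8 (without MES3) to 393 (without MES1), with 31 without MES2, 36, 100, 40 and 85 without the MPH1 arrays in the order above, and 84 and 83 without a fibroblast array, where the lone array is assumed to vary like the other groups. The share of higher calls was 81.2% as reported and 21.4% with centring. Against fibroblasts 12431 were called, 8190 when averaged per line, and 8524 to 14859 with 1 array left out, with 50.1% higher as reported, 61.9% with centring and 58.9% with quantile normalization, which moved the median of all genes by 0.31 and 0.24. Between M1 and M2, 0 were called and 3 with dim signals raised to the array median, and 0 with any 1 array left out. Later against earlier passage gave 0 in all 11 alternatives. No paired analysis was possible because the groups are different lines and share no replicate numbers in the labels.

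Between PG-haESCs and ICSI ESCs, ALDH1L2 was at -0.06 on all 3 probe sets with dim signals raised, which is only a difference of array medians. On the first probe set it was at -0.18 without MES3. Against fibroblasts the medians of the sensors and degradation lists were 0.20 and 0.03 with centring. Between the ESC groups the medians of the degradation, mTORC1, folate, hypoxia and p53 lists changed sign under at least 1 alternative. The other turned directions of the 5 genes were within MPH1. With centring, which moved the median of all genes by -0.39 between codes and -0.38 between passages, M1 minus M2 was -0.17 for DDIT3, -0.31 for DDIT4 and -0.061 for CHAC1, and later minus earlier was -0.18 for DDIT4 and -0.15 for HERPUD1. With quantile normalization DDIT3 later minus earlier was 0.0039. With dim signals raised ALDH1L2 M1 minus M2 was 0.39, again only a difference of array medians. With 1 MPH1 array left out, M1 minus M2 ran from -0.56 to 0.72 for DDIT4 and -0.19 to 0.14 for ALDH1L2, and later minus earlier from -0.091 to 0.045 for DDIT3 and -0.44 to 0.83 for DDIT4. The fits without the spike-in arrays, with dim signals raised, without single MPH1 arrays and without ALDH1L2 in the mean profile, and the list counts without single arrays, were added after seeing the data.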
